A study of Homo sapiens with 8 samples.

Results

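The regions described here are sites of GATA2 binding in VCaP cells that had a peak in both JQ1-treated precipitates and in untreated replicate 2, but no peak in untreated replicate 1. Wherever peaks of the 4 deposited lists shared a base they were chained, which gave 36122 merged regions on chromosomes 1 to 22, X and Y, and 1329 of them (3.68%) met this rule. The regions were chosen by the presence or absence of a peak in each list, so every peak value given for these regions describes chosen sites and carries no test. VCaP is an established human prostate cancer line, labelled castrate-resistant, in which GATA2 was precipitated with an antibody from cross-linked, sonicated chromatin and the DNA sequenced from single ends (ChIP-seq). All cells were held without steroids for 72 h, and for the last 24 h they received either the solvent DMSO (2 precipitates, labelled as non-treated and called untreated here) or JQ1 at 1 µM (2 precipitates). The remaining 4 of the 8 samples were input chromatin and were not analysed here as separate lists. The work rests on a single cell line, and the labels do not say whether replicates were separate cultures.

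GATA2 is a zinc-finger transcription factor that recognises a short GATA core on DNA and, in prostate cells, binds many enhancers together with the pioneer factor FOXA1. JQ1 occupies the acetyl-lysine pockets of BET proteins, which read acetylated histones at active enhancers and promoters and help recruit the transcription machinery. Outside the prostate, GATA2 is best known for its role in blood stem cells and endothelium.

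The 4 lists differed in length. They held 6902 peaks in untreated replicate 1, 27373 in untreated replicate 2, 4974 in JQ1 replicate 1 and 32404 in JQ1 replicate 2, and the lengths followed replicate number rather than treatment. The log2 ratio of mean peak numbers, JQ1 over untreated, was -0.11 (means taken on the log2 scale; two-sided exact permutation test over the lists, p = 1, smallest possible p 0.333). Each peak carries a q-value, a p-value adjusted for multiple testing. The deposited peak names carry the value q 0.051 in untreated replicate 1 and 0.05 in the other 3 lists, and the weakest peak of each list had a −log10 q between 1.305 and 1.331. The number of reads under each summit, recovered from the deposited fold enrichment and p-value, was at least 8 in untreated replicate 1, 11 in untreated replicate 2, 7 in JQ1 replicate 1 and 8 in JQ1 replicate 2. A missing peak therefore says that a site did not pass the threshold in that library. It does not give the site's signal there, and the total depth of the libraries is unknown from the lists.

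The sequence could be read at 6 of the regions, which overlapped one of 35116 RefSeq promoter windows that run from 250 bases before to 50 bases after a gene's annotated start (build GRCh38.p14). These 6 are shown for that reason. Each is the stretch shared by the region and the window, 5′ to 3′ on the strand of the gene, with the GATA hexamers in capitals. A hexamer was the core GATA with either A or T before it and either A or G after it, searched on both strands, so that a match on the other strand reads as the reverse complement, such as TTATCT for AGATAA. For CABLES1, a coding gene, 30 bases around the match are given. The stretches lie at chr2:223488872-223489117 on the plus strand for LOC105373907, chr7:110534722-110534967 on the minus strand for LOC105375451 and chr9:24126395-24126475 on the plus strand for LOC124902327. The others lie at chr9:117466242-117466418 on the minus strand for LOC105376242, chr18:23134561-23134590 on the plus strand for CABLES1 and chrX:10619451-10619684 on the plus strand for LOC124905245.
LOC105373907: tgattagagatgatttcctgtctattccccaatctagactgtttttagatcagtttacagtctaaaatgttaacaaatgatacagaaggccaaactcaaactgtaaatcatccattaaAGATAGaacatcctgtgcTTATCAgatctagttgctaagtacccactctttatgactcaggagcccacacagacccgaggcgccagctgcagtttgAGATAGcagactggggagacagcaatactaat
LOC105375451: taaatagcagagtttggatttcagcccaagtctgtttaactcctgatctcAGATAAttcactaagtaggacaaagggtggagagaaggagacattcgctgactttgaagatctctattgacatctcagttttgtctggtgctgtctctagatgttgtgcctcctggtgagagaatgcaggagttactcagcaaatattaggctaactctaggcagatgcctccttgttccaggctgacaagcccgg
LOC124902327: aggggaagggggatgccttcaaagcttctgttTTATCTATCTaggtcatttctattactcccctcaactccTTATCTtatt
LOC105376242: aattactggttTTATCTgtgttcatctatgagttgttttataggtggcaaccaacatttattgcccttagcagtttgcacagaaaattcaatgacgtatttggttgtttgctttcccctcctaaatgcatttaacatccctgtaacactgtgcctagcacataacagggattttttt
CABLES1: aacgtgcttatgAGATAAacgacagggtaa
LOC124905245: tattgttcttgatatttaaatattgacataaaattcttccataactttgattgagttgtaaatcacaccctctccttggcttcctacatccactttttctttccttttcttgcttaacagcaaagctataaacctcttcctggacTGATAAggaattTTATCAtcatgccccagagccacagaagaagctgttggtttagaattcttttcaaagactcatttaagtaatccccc

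Windows on chromosome 8 were not used, so the 6 are 0.48% of the 1250 regions on other chromosomes, beside 0.782% of all 34005 merged regions there and 1.29% of the 3022 in all 4 lists. All 6 stretches held at least 1 of these hexamers. Long noncoding RNAs made up 5 of the 6 genes, and they made up 36.8% of all windows and 43.8% of the 283 windows that overlapped any merged region. A hexamer was present in 24.97% of all 35116 windows, counted over the whole window. It was present in 67.5% of the 283 windows that overlapped any merged region, in 65.9% of the 41 that overlapped a region in all 4 lists, and in 70.4% of the 27 that overlapped a region missing only from JQ1 replicate 1. A match is a description of letters in the window and not a measured contact. In the sequence of LOC105373907 the nearest match lay 3 bp from the summit called in JQ1 replicate 1, and in LOC105375451 it lay 17 bp away. In LOC124905245 it was 45 bp. In the other 3 the stretch shared with the window stopped short of the summit, and the nearest match within it lay 18 bp away in LOC105376242, 73 bp in CABLES1 and 349 bp in LOC124902327. In LOC124902327 the first 2 of the 3 matches overlap, as TTATCTATCT.

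These 6 sites stood between 63.3% and 97.2% from the top of JQ1 replicate 1 by −log10 q, in its lower part. At LOC124902327, whose nearest coding gene ELAVL2 lies 276.2 kb away, the −log10 q was 18.5 in untreated replicate 2, 6.44 in JQ1 replicate 1 and 84.5 in JQ1 replicate 2. At LOC105376242, 51.4 kb from the neuronal gene ASTN2, the −log10 q was 32.4, 4.64 and 42.5 in the same order. At CABLES1, which codes for a CDK-binding adaptor, it was 14.5, 3.85 and 7.67. Places were compared over the 21173 regions present in both replicate 2 lists, each list ordered by −log10 q. LOC124902327 stood 48.7% from the top in untreated replicate 2 and 6.08% in JQ1 replicate 2, LOC105376242 29.4% and 20.5%, and CABLES1 58.0% and 83.6%. The first pair was thus nearer the top with JQ1 and CABLES1 nearer it without. At LOC124905245, inside the span of the ubiquitin ligase gene MID1, 67 reads stood under the summit in untreated replicate 2, 8 in JQ1 replicate 1 and 32 in JQ1 replicate 2.

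The number of these regions was compared with the other 3 ways of missing a single list. Beside the 1329 regions, 2890 lacked a peak only in JQ1 replicate 1, 13 only in untreated replicate 2 and 15 only in JQ1 replicate 2, while 3236 had a peak in all 4. Of the 4565 regions in both JQ1 lists and untreated replicate 2, 29.1% had none in untreated replicate 1 (95% Wilson interval 27.8% to 30.4%, counting error only). Of the 6126 regions in both untreated lists and JQ1 replicate 2, 47.2% had none in JQ1 replicate 1 (45.9% to 48.4%). The missing list was nearly always one of the short ones. When each list was trimmed to its 4974 strongest peaks, the counts were 456 without untreated replicate 1, 471 without JQ1 replicate 1, 154 without untreated replicate 2 and 297 without JQ1 replicate 2. Of the 456, 282 (61.8%) were among the 1329 regions and made up 21.2% of them. At equal length, untreated replicate 1 and JQ1 replicate 1 were missing from similar numbers of regions.

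**Figure D1:**
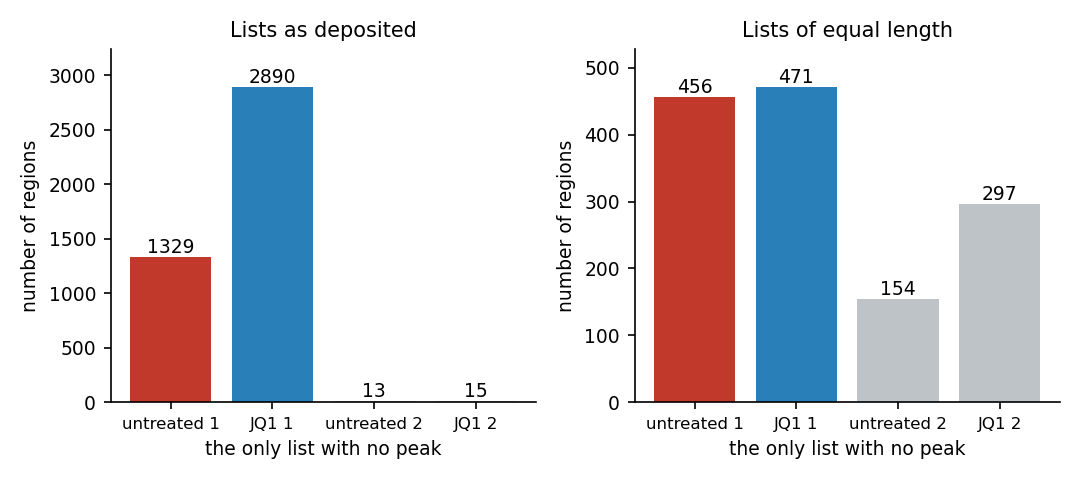
Number of merged regions (vertical axis) that lack a peak in exactly 1 list, by the list that lacks it, for the lists as deposited (left) and trimmed to 4974 peaks each (right, on its own scale). The 1329 and 2890 regions of the left panel become 456 and 471 in the right panel, and the bars for the replicate 2 lists rise from 13 and 15 to 154 and 297.

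Within each list that held them, the regions stood lower than those present in all 4 lists. The median −log10 q was 5.87 in JQ1 replicate 1, with a range from 1.305 to 40.5. In untreated replicate 2 the median was 26.2 (range 1.377 to 163.2), and in JQ1 replicate 2 it was 33.0 (range 1.345 to 208.2). Most sat below the middle of JQ1 replicate 1, at a median place of 68.1% from its top, against 37.5% for regions in all 4 lists. In untreated replicate 2 the median place was 28.8% against 7.92% for regions in all 4 lists, and in JQ1 replicate 2 it was 18.9% against 7.44%. Places in lists of different length are read only against other regions of the same list. The fold enrichment at the summit was reads over local background, with 1 added to each. In untreated replicate 2 both were multiplied by 0.686 before the 1 was added. The median fold was 10.8 in untreated replicate 2, 5.34 in JQ1 replicate 1 and 11.3 in JQ1 replicate 2. The median number of reads under the summit was 54, 16 and 46 in that order.

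Few of the regions stood near the top of every list that held them. In JQ1 replicate 1, 820 of 1329 (61.7%) had a −log10 q of at least 5, 216 (16.3%) of at least 10 and 16 (1.204%) of at least 20. Values there under 5, 10 and 20 were thus found at 38.3%, 83.75% and 98.8% of them. Among the 3236 regions in all 4 lists, values under these limits were found at 14.5%, 46.3% and 81.0%. A value under 2 was found at 53 regions (3.99%), against 41 of the 3236 regions in all 4 lists (1.27%). In the top 20% of all 3 lists at once stood 23 regions, and in the top 10% of all 3 stood 1, near HOXC13. The regions were narrower than those in all 4 lists, with a median merged width of 341 bp against 394 bp, and wider than the 300 bp of regions missing only from JQ1 replicate 1. Within a region, the median distance between summits was 10 bp between the replicate 2 lists and 18 bp between the JQ1 lists. Between JQ1 replicate 1 and untreated replicate 2 it was 19 bp. For regions in all 4 lists these medians were 7, 13 and 12 bp. Peaks were chained only where they overlapped, so close summits follow in part from the rule.

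**Figure D2:**
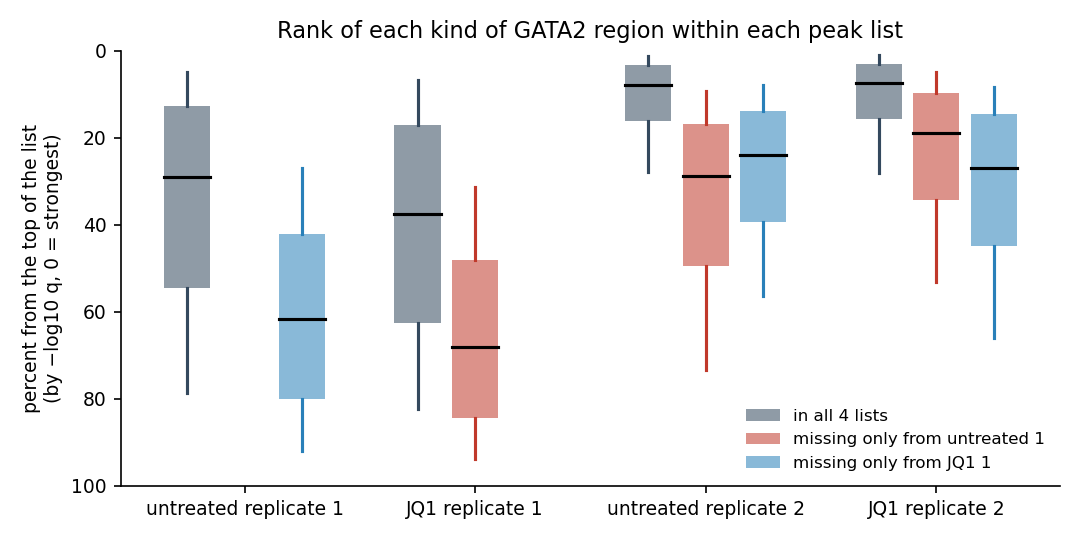
Place of a region within each peak list, as the percentage of peaks from the top of the list by −log10 q (0 is the strongest peak), for regions in all 4 lists, regions missing only from untreated replicate 1 and regions missing only from JQ1 replicate 1. Boxes span the middle 50% of regions, black lines are medians and whiskers reach the 10th and 90th percentiles; in JQ1 replicate 1 the regions missing from untreated replicate 1 lie below those in all 4 lists, at medians of 68.1% and 37.5%.

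Strength in one list was only partly shared with another. Across the 1329 regions, which share libraries and local background, the −log10 q of the replicate 2 lists had a Spearman rho of 0.61 and a Pearson r of 0.65. Between the JQ1 lists rho was 0.35 and r was 0.35, and between JQ1 replicate 1 and untreated replicate 2 rho was 0.26 and r was 0.24. When the regions were ranked by JQ1 replicate 1 and cut into 4 sets, the 332 of the strongest set had a median −log10 q of 35.6 in untreated replicate 2 and 48.0 in JQ1 replicate 2, against 20.6 and 23.9 in the 333 of the weakest set.

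The replicate 2 lists both held a peak at every one of these regions, so the order of the regions could be compared in a set of equal length. Both lists shared 21173 regions, of which the 1329 were 6.28%, and each list was ordered over this shared set by −log10 q. Of the 1329 regions, 853 (64.2%, interval 61.6% to 66.7%) stood nearer the top in JQ1 replicate 2, compared with 48.9% of all 21173. A move of at least 10 percentile points toward the JQ1 list was seen at 558 regions (42.0%), against 27.8% of the shared set, and a move of that size toward the untreated list at 233 (17.5%), against 28.7%. The median region stood 36.2% from the top in untreated replicate 2 and 28.0% in JQ1 replicate 2. The regions missing only from JQ1 replicate 1 leaned the other way, with 34.3% nearer the top in JQ1 replicate 2 and 14.98% and 41.2% moving by 10 points toward JQ1 and toward untreated. Regions held by the replicate 2 lists alone were evenly divided, with 52.0% nearer the top in JQ1 replicate 2, and regions in all 4 lists stood at 42.5%. Since membership was set by the replicate 1 lists of the same treatments, this lean describes the chosen regions and was not tested. It rests on 1 library per treatment.

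The lean was present at each strength in JQ1 replicate 1. From the weakest to the strongest of the 4 sets, 61.0%, 64.5%, 59.0% and 72.3% of the regions stood nearer the top in JQ1 replicate 2. Ordered by fold enrichment in place of −log10 q, 57.4% of the regions did so, against 49.4% of the shared set, and ordered by reads 67.6% did so, against 45.9%. Among the 789 regions with a −log10 q of at least 5 in all 3 lists the share was 65.3%.

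**Figure D3:**
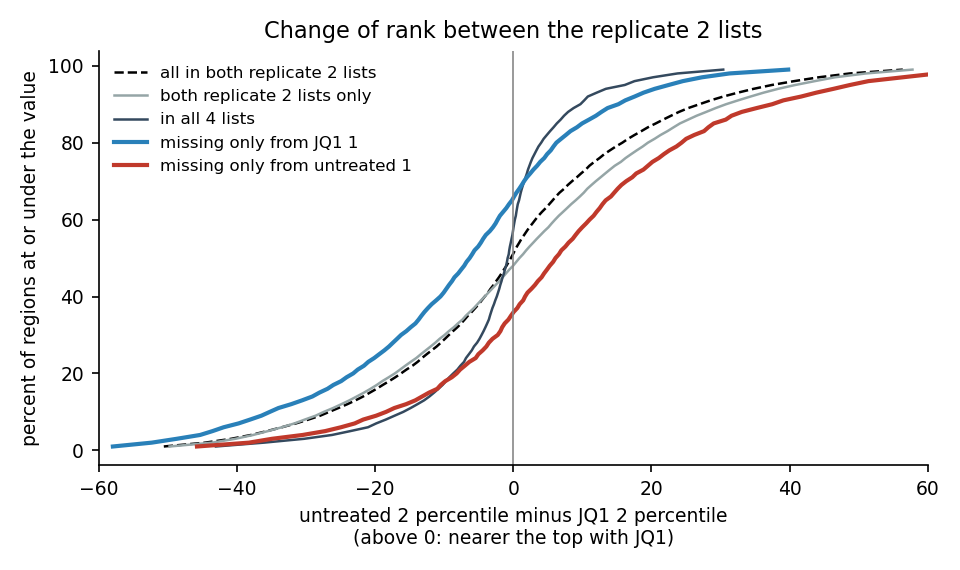
Cumulative percentage of regions (vertical axis) at or under a given difference in percentile between the replicate 2 lists (horizontal axis, untreated minus JQ1, so that values above 0 are nearer the top with JQ1), for 5 kinds of region, from the 1st to the 99th percentile. The curve of regions missing only from untreated replicate 1 lies to the right, with a median of 6.12 points, that of regions missing only from JQ1 replicate 1 to the left, with a median of -6.30, and that of the whole shared set near 0, at -0.34.

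The strongest of these regions by mean place over the 3 lists lay near HOXC13, a homeobox gene of the HOXC cluster. At chr12:53947140-53947462, 0.756 kb outside the gene span, the −log10 q was 94.6 in untreated replicate 2, 40.5 in JQ1 replicate 1 and 104.0 in JQ1 replicate 2, over 119, 43 and 103 reads. It stood 3.99%, 2.57% and 2.40% from the top of these lists, and the nearest peak of untreated replicate 1 lay 16.1 kb away. At FBXO15, an F-box gene 541.7 kb from its region, the −log10 q was 95.2, 19.9 and 189.6 in the same order. The region inside PTPRQ, a receptor-type phosphatase gene, had values of 89.7, 16.9 and 208.2, the last being the highest of the 1329 in JQ1 replicate 2. Within the shared set the FBXO15 region moved from 5.02% to 0.378% from the top between untreated and JQ1 replicate 2, and the PTPRQ region from 5.79% to 0.222%.

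PAPPA, LTBP1, CBLN2 and CCER1 were nearest to 4 more of the leading 12. Near PAPPA, which codes for a protease that cleaves IGF-binding proteins, the −log10 q was 123.8 in untreated replicate 2, 15.96 in JQ1 replicate 1 and 99.8 in JQ1 replicate 2, and a peak of untreated replicate 1 stood only 0.411 kb away. Inside LTBP1, whose product holds latent TGF-beta in the matrix, the values were 92.3, 16.2 and 102.5, and this region was the widest of all at 1033 bp. Inside CBLN2, a synaptic organiser gene, they were 47.1, 27.8 and 96.5. In the shared set CBLN2 moved by 14.1 percentile points toward JQ1, whereas PAPPA and LTBP1 differed by under 2 points. Near CCER1 the values were 163.2, 13.2 and 205.8, so that the highest untreated replicate 2 value of the 1329 belonged to a region 27.3% from the top of JQ1 replicate 1.

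The others of the 12 had their nearest coding genes in TMTC2, POU5F1B, RFC2, FHIT and LIM2. RFC2, a subunit of the clamp loader of DNA replication, held a region with a −log10 q of 57.8 in untreated replicate 2, 19.5 in JQ1 replicate 1 and 112.0 in JQ1 replicate 2. FHIT, a tumour suppressor gene at a fragile site, held one with 52.9, 21.3 and 99.9. The region near LIM2, a lens membrane protein gene, had 69.2, 16.1 and 132.6. In the shared set these 3 moved toward JQ1 by 10.7, 11.8 and 8.27 percentile points, and the region near TMTC2 differed by -1.38.

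The 8 regions with the highest values in JQ1 replicate 1 included HOXC13 and CBLN2. The others lay inside or nearest to GRIK2, TAF3, ACAP2, SEMA3C, RWDD1 and C8orf34. At TAF3, a subunit of the TFIID complex, the −log10 q was 29.8 in untreated replicate 2, 28.0 in JQ1 replicate 1 and 68.8 in JQ1 replicate 2. This site also lay 60.7 kb from the span of GATA3, a GATA family gene of luminal epithelia. Inside SEMA3C, which codes for a secreted semaphorin, the values were 16.7, 24.5 and 50.5, and inside RWDD1 they were 6.78, 24.5 and 39.8. In the shared set SEMA3C, RWDD1, C8orf34 and ACAP2 moved toward JQ1 by 36.6, 63.5, 51.0 and 13.8 percentile points. At RWDD1 the reads under the summit were 20 in untreated replicate 2, 40 in JQ1 replicate 1 and 49 in JQ1 replicate 2, and its place in the shared set moved from 85.9% to 22.4% from the top.

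**Figure D4:**
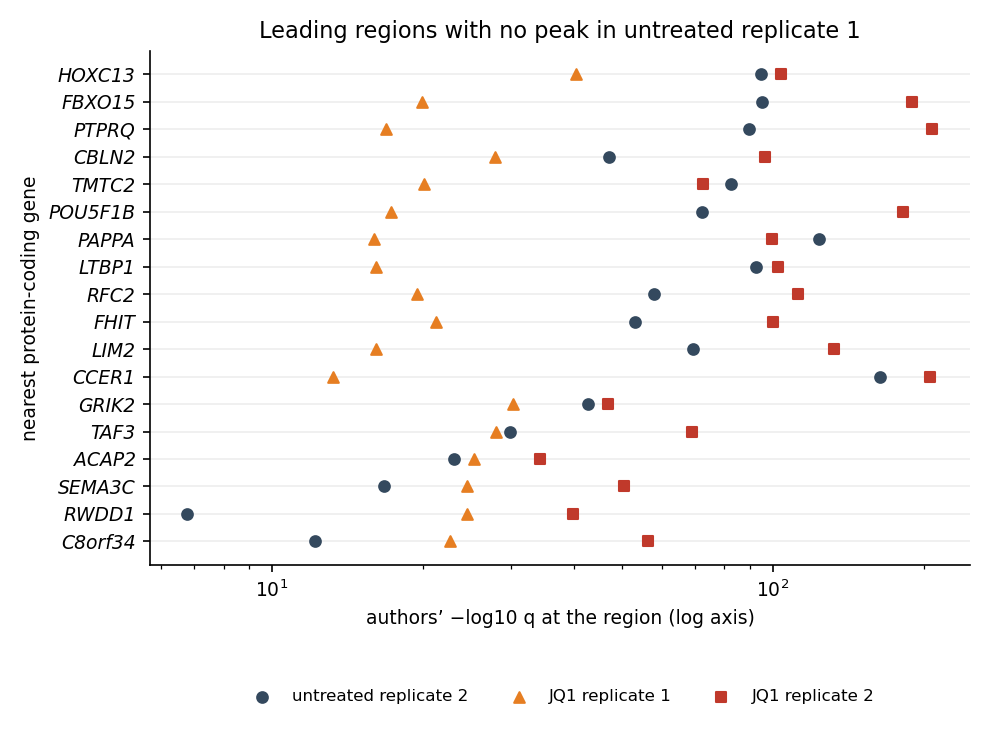
Authors' −log10 q (horizontal log axis) at the 18 regions named by mean place or by strength in JQ1 replicate 1, labelled by nearest protein-coding gene (vertical axis), with 1 point for each list that held the region. Points of 1 kind can be compared down the plot, where HOXC13 has the highest JQ1 replicate 1 value, 40.5, and CCER1 the highest untreated replicate 2 value, 163.2; points within a row come from libraries of unknown depth.

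The widest differences in place between the replicate 2 lists were chosen after their values were seen. Toward JQ1 they were nearest to COX10 and DACT1 and inside GREB1 and BBS4, with a second region inside PTPRQ. Inside GREB1, a steroid hormone-responsive gene, the −log10 q was 7.15 in untreated replicate 2, 8.18 in JQ1 replicate 1 and 84.2 in JQ1 replicate 2, over 30, 19 and 73 reads, and a peak of untreated replicate 1 stood 1.2 kb away. Near COX10 the values were 2.58, 4.92 and 59.3. In the shared set the GREB1 region stood 83.9% from the top in untreated replicate 2 and 6.17% in JQ1 replicate 2, and the COX10 region 98.8% and 12.4%. Toward untreated, a region inside ADGRL2 had 34.0, 3.53 and 4.87, and one near PELO had 28.4, 6.59 and 2.58. They stood 27.8% and 33.4% from the top in untreated replicate 2 and 93.6% and 98.8% in JQ1 replicate 2.

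The values just at the edge of the rule were as follows. The weakest region in JQ1 replicate 1 lay inside PARVA, at a −log10 q of 1.305 over 8 reads, with 3.85 in untreated replicate 2 and 29.1 in JQ1 replicate 2. The region nearest to a peak of untreated replicate 1, 703.5 kb from CRIM1, ended 10 bp from it and had 40.5 in untreated replicate 2, 7.82 in JQ1 replicate 1 and 17.2 in JQ1 replicate 2. Just outside the rule, the region inside ARID4B was in all 4 lists, with 1.331 over 8 reads in untreated replicate 1, 24.4 in untreated replicate 2, 10.6 in JQ1 replicate 1 and 43.3 in JQ1 replicate 2. The shortest overlap by a peak of untreated replicate 1 among regions in all 4 lists was 140 bp, inside NCKAP1L.

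Most of the regions had no called site of untreated replicate 1 close by. A peak of that list lay within 1 kb of 30 regions (2.26%), within 10 kb of 157 (11.8%) and within 50 kb of 467 (35.1%), and the median distance was 87.1 kb. For the regions missing only from JQ1 replicate 1, 2.04% had a peak of that shorter list within 1 kb and 26.9% within 50 kb. The lists differ in length, 6902 against 4974 peaks, so the shares are given side by side with no reading of a difference.

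**Figure D5:**
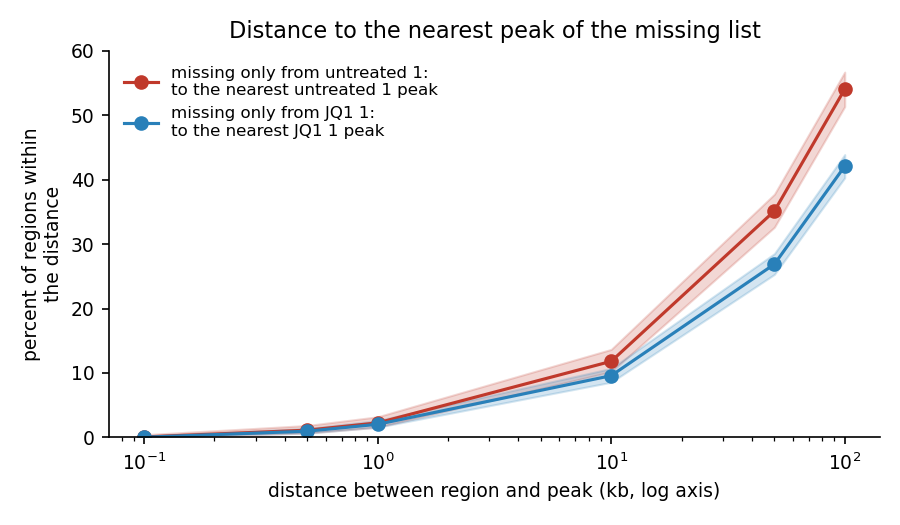
Percentage of regions (vertical axis) with a peak of the list that lacks them within a given distance (horizontal log axis, kb), for regions missing only from untreated replicate 1 and only from JQ1 replicate 1, with 95% Wilson bands. At 50 kb the shares are 35.1% and 26.9%.

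Position relative to genes was close to that of GATA2 regions in general, except for a lower share within 1 kb of a RefSeq start. The summit lay inside a protein-coding gene span at 667 of 1329 regions (50.2%), against 49.9% of all regions and 49.4% of those in all 4 lists. Within 1 kb of an end of a span lay 36 regions (2.71%, interval 1.96% to 3.73%), against 2.20% of all regions. A RefSeq start lay within 1 kb of 16 of the 1250 regions off chromosome 8 (1.28%, interval 0.789% to 2.07%), against 2.14% of all regions and 2.35% of those in all 4 lists. The median distance to a start was 44.7 kb, against 44.2 kb for all regions. Most sites were thus far from starts, as were GATA2 regions as a whole.

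The regions were spread over every chromosome. Chromosome 2 held 126 of them, chromosome 3 held 108 and chromosome 7 held 105. Chromosome 7 had 7.90% of these regions (interval 6.57% to 9.47%) against 6.07% of all regions, and chromosome 9 had 6.25% (5.07% to 7.68%) against 4.36%. Chromosome 20 had 1.13% (0.685% to 1.85%) against 2.12%. On chromosome 20 the regions missing from untreated replicate 1 were 13.9% of those missing from just 1 of the replicate 1 lists (15 beside 93). On chromosome 21 they were 43.8% (35 beside 45), and over all chromosomes the counts were 1329 beside 2890. Shares as far apart were also found on chromosome 19, at 14.3%, and chromosome Y, at 50%, with only 6 and 4 of these regions. Regions are not replicates, so these shares carry no test.

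Neighbouring regions of this kind were uncommon. Another such region lay within 50 kb of 143 (10.8%), against 25.7% for the more numerous regions in all 4 lists. Among protein-coding gene spans, 2 held 4 of these regions, 11 held 3, 53 held 2 and 539 held 1. ADGRL2, a latrophilin adhesion receptor gene, and GPC6, a glypican gene, held 4 each. Both are long genes, of 687.8 kb and 1191 kb, and each span held 26 merged regions in all. In GPC6 the −log10 q in JQ1 replicate 2 was 34.2, 5.42, 32.0 and 52.6 from the lowest to the highest coordinate, and in untreated replicate 2 it was 6.46, 3.94, 23.1 and 54.4. In ADGRL2 the JQ1 replicate 2 values were 36.3, 4.87, 59.3 and 43.3, and the untreated replicate 2 values 7.29, 34.0, 43.8 and 28.9. In the shared set the GPC6 regions moved toward JQ1 by 60.2, 4.10, 11.8 and -0.12 percentile points and the ADGRL2 regions by 58.1, -65.8, 7.94 and 12.8, so sites within 1 gene did not share 1 direction. Of the spans with 3 regions the 4 shortest were ACER3, an alkaline ceramidase gene, NCOA2, and the overlapping REDIC1 and SLC2A13, which share the same 3 regions. In ACER3, which held 11 merged regions over 165.9 kb, all 3 stood nearer the top in JQ1 replicate 2, by 17.2, 11.96 and 36.8 points.

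Genes near these regions were counted for 13 lists of genes chosen with earlier results of these data known. Over all protein-coding genes, 1200 of 20037 (5.99%) had one of the regions within 50 kb of the span, and 13.6% had a region present in all 4 lists. Of 29 androgen-regulated genes, 6 had one (20.7%), and 15 (51.7%) had a region in all 4 lists. The 6 became 2 (6.90%) within 10 kb, and also 2 when only regions with a −log10 q of at least 5 in all 3 lists were counted. The 1200 of all protein-coding genes fell as well, to 751 (3.75%) within 10 kb and to 709 for those stronger regions. The 4 nearest were HERC3, a ubiquitin ligase gene, MAF, a bZIP transcription factor gene, STEAP4, a metalloreductase gene, and ACSL3, a fatty acid activation gene. The region inside HERC3 had a −log10 q of 54.8 in untreated replicate 2, 3.10 in JQ1 replicate 1 and 23.8 in JQ1 replicate 2, and the region at ACSL3 had 32.7, 15.96 and 74.6. At STEAP4 the values were 36.8, 4.04 and 25.6. In the shared set HERC3 and STEAP4 stood at -25.4 and -11.9 points, nearer the top in untreated replicate 2, and ACSL3 at 20.97, nearer it in JQ1 replicate 2.

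Transcription factor and coactivator genes gave 3 each. Of 27 prostate transcription factor genes (11.1%) these were ERG, ESRRG and ETV1, all with the site inside the span. At ERG, an ETS factor gene that VCaP carries fused to TMPRSS2, the −log10 q was 5.85 in untreated replicate 2, 8.01 in JQ1 replicate 1 and 49.0 in JQ1 replicate 2. At ESRRG, an orphan nuclear receptor gene, it was 17.9, 16.2 and 39.6, and at the ETS factor gene ETV1 it was 45.6, 13.7 and 47.4. ERG moved by 72.3 percentile points toward JQ1 in the shared set, ESRRG by 27.5 and ETV1 by 1.71. Of 28 genes for BET proteins and coactivators (10.7%) the 3 were MLLT3, a subunit of the super elongation complex, and the steroid receptor coactivators NCOA1 and NCOA2. At MLLT3 the values were 8.24, 12.5 and 37.1, and at NCOA1 they were 29.8, 6.73 and 24.5. A region in all 4 lists lay within 50 kb of 10 of the 27 genes (37.0%) and 10 of the 28 (35.7%). Over all protein-coding genes that share was 13.6%.

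The other lists had few or none. No gene had one of these regions within 50 kb among 18 genes often lowered by BET inhibitors, 15 often raised by them, 18 neuroendocrine markers or 20 cell cycle genes. Among 26 genes of androgen synthesis and inactivation there was 1, HSD17B4, at 43.3 kb, with a −log10 q of 75.4 in untreated replicate 2, 8.93 in JQ1 replicate 1 and 94.5 in JQ1 replicate 2. Among 20 luminal markers there were PDLIM5 and DPP4, among 18 basal markers EGFR, among 18 stromal and immune markers PECAM1, among 20 housekeeping genes TBP, and among 20 blood and endothelial GATA2 targets HDC and CD34. At HDC, the histidine decarboxylase gene, the values were 25.3, 7.02 and 37.2, and 39.8 kb from CD34, a surface marker of blood stem cells, they were 35.4, 4.50 and 76.4. At EGFR the values were 16.4, 4.91 and 17.5. With lists of 15 to 29 genes, shares near the 5.99% of all genes come to 1 or 2 genes a list.

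For most of the listed genes the region was not the only GATA2 site nearby. Over all protein-coding genes 586 (2.92%) had one of these regions within 50 kb and no region with a peak in both untreated lists. Among only the 1200 genes with one of these regions within 50 kb, that is 586 of 1200. Other GATA2 regions, without a peak in both untreated lists, were not considered in this count. Of the 20 listed genes with one of the regions that are named or counted above, CENPN, ESRRG, HSD17B4, DPP4, EGFR, HDC and TBP were such genes. CENPN was named after its values were seen.

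The regions were also counted at 5 loci that mark a luminal prostate line or code for its factors. Within 100 kb of KLK3, TMPRSS2, FOXA1, GATA2 and HOXB13 there was none, and the peak lists hold no expression values with which to check the line itself.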

How the data were processed

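The submitters' processing notes name the tools Bowtie2, Picard and MACS2, without versions, and the build hg38. Each deposited list belongs to 1 precipitate. The score that the authors' peak caller wrote for each deposited peak was not used. The fold enrichment (a ratio), −log10 p-value and −log10 q-value are the authors' peak values. Apart from the correlations of −log10 q between lists, they were compared only as places within a list or within the regions shared by the replicate 2 lists. Values of several lists printed side by side come from libraries of unknown depth and are not compared in size. Left out were 10 mitochondrial peaks of JQ1 replicate 1 and 8 on unplaced contigs of untreated replicate 2.

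Peaks were chained and counted in Python 3.11.15 with SciPy 1.17.1. Reads under each summit were recovered as whole numbers from the deposited fold and p-value, to within 0.01 in −log10 p, for 100% of peaks after rounding. Not every peak was recovered: in JQ1 replicate 2 the reads were recovered at 3235 of the 3236 regions in all 4 lists. Untreated replicate 2 needed a scale of 0.686 on its reads. Each list's strongest peak stood for a region, and gene distances were taken from the JQ1 replicate 1 summit to spans of RefSeq GRCh38.p14. Merging and read recovery were tested on simulated data. Members and gene lists were chosen with earlier results of these data known, and the order in the replicate 2 lists was added after the data were seen. Genes named are nearest to the 12 regions of best mean place and the 8 strongest in JQ1 replicate 1, the 6 spans with most regions (shorter first on ties), and up to 4 genes per list, nearest first. All 277 list entries matched. Results at a few loci are not reported here. Intervals are 95% Wilson and cover counting error only. The p of peak numbers measures only the spread between these samples, which may be technical.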

Additional observations from a re-analysis of the deposited data

Results flagged for a closer look

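The list of JQ1 replicate 1 held 10 peaks on the mitochondrial chromosome, and the other 3 lists held none. These peaks lie outside the chromosomes compared and entered no count above. JQ1 replicate 1 is 1 of the 3 lists that define the 1329 regions.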

How the results depend on the processing

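The count of 1329 stayed within 1.5 times under reciprocal 50% overlap, matching of summits, wider joining of peaks and a −log10 q of at least 5. A similar count need not mean the same regions. At a −log10 q of at least 5 there were 968, of which 789 (81.5%) were among the 1329 and made up 59.4% of them. The count was 456 in lists of equal length. Leaving out 1 list from the rule, which loosens it by construction, gave 1343 to 15048 regions, 4565 without untreated replicate 1 and 15048 without JQ1 replicate 1. In lists of equal length, 471 regions lacked only JQ1 replicate 1, 154 only untreated replicate 2 and 297 only JQ1 replicate 2, and 2022 were in all 4. At a −log10 q of at least 5, 5 lacked only untreated replicate 2 and 6 only JQ1 replicate 2, and under 50% overlap these were 303 and 149. A window of 3 kb at gene ends gave 6.396% of regions. Another region lay within 10 kb of 5.04% and within 100 kb of 15.95%. Genes with a region numbered 751 at 10 kb, 1837 at 100 kb and 709 for regions with a −log10 q of at least 5 in all 3 lists. The share nearer the top in JQ1 replicate 2 was 57.4% by fold and 67.6% by reads. The log2 ratio of peak numbers, -0.11, reversed to 0.24 without replicate 1 and was -0.47 without replicate 2, with no test in either. With replicate number as a block it was -0.11 (exact sign flips, p = 1, smallest possible p 0.5). The counts of regions come from no test, so only peak numbers have a paired value. The cause of these changes was not tested. Motif windows around summits and their alternatives were not run, since no genome sequence was used here.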

Other observations

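Counted in windows of 1 Mb, 710 windows held 1 of the 1329 regions, 186 held 2, 47 held 3, 19 held 4 and 6 held 5. Of the last, 5 windows, singled out after the counts were seen, lay around PTPRQ, FBXO15, GALNT3, PI15 and ANXA1, and each held 21 to 37 merged regions in all. In the window of GALNT3, which codes for an enzyme that starts mucin-type O-glycosylation, the 5 regions lay inside GALNT3, the sodium channel gene SCN2A and the ciliary gene TTC21B. Of the pair inside GALNT3, the region at chr2:165766367-165766628 had a −log10 q of 3.85 in untreated replicate 2, 3.10 in JQ1 replicate 1 and 12.9 in JQ1 replicate 2. The other, at chr2:165775999-165776553, had 41.6, 6.44 and 43.6. The region inside SCN2A had 24.5, 3.78 and 9.31, and in the shared set these 3 regions stood at 31.7, 2.06 and -38.7 points toward JQ1. In the window of ANXA1, an annexin gene, 4 regions lay 409.6 to 572.2 kb from ANXA1 and 1 lay 61.0 kb from ALDH1A1, a retinaldehyde dehydrogenase gene. At the ALDH1A1 region the −log10 q was 18.0 in untreated replicate 2, 3.29 in JQ1 replicate 1 and 24.1 in JQ1 replicate 2.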
